A study of Arabidopsis thaliana with 12 samples.

Results

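The comparison set the Arabidopsis thaliana line that carried the Melampsora larici-populina effector Mlp37347 fused to green fluorescent protein (GFP) against the line with GFP alone, called Control. It used 8 of the 12 libraries of the series, all 4 of Mlp37347 and all 4 of Control, and the 19090 of 32833 loci that passed the filter on low counts. Both groups were stable transformants of the ecotype Col-0. The Mlp37347 plants carried Mlp37347-GFP and the BAR marker, and the Control plants GFP and the BAR marker, so that GFP and BAR were common to both. All plants were grown in soil at 22 °C with 16 h of light per day and were harvested 15 days after germination. Aerial tissue was pooled for each library, and 100 ng of total RNA entered library preparation. Neither the promoter that drove the fusion, nor the number of independent transformants per line, nor the hour of harvest is given in the labels. The labels do not state whether each library came from its own set of plants. The p-values therefore rest on the spread of these libraries, which may partly be technical. In pooled tissue, fewer cells of a type and less RNA per cell cannot be told apart.

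Melampsora larici-populina is the fungus of poplar leaf rust, and proteins that rust fungi secrete into host tissue, called effectors, are often studied by expressing them in Arabidopsis. In Arabidopsis leaves, intracellular NLR receptors and surface receptor kinases perceive pathogens, and the EDS1 and PAD4 proteins, WRKY transcription factors and the hormone salicylic acid carry the signal onward. A separate network, the circadian clock, alternates morning genes such as LHY with evening genes such as GI and PRR5, and sets the daily rhythm of starch use, growth and photosynthesis.

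Total counts were 12368262 to 24483245 in the Mlp37347 libraries and 6645703 to 37378917 in the Control libraries. Mlp37347 4 stood apart from the other 3 libraries of its line. The median absolute log2 difference over loci was 0.115 to 0.145 among Mlp37347 1, 2 and 3, and 0.614 to 0.643 between each of these and Mlp37347 4. On the first principal component, with 45.7% of the variance, Mlp37347 1, 2 and 3 lay at 66.8 to 70.1, Mlp37347 4 at -30.4 and the Control libraries at -83.3 to -12.4. The mate inner distance set for alignment also differed, with 115, 110, 110 and 70 bp in Mlp37347 1 to 4 and 50 to 84 bp in Control. Among the Controls, library 1 was the shallowest, with 57.6% of surviving reads aligned, where the remaining 7 had 89.3% to 95.5%. The 178 tested loci that lie wholly inside a locus annotated on the other strand summed to 1156, 860, 990 and 2135 CPM in Mlp37347 1 to 4. In Control they summed to 6610 CPM in library 1 and to 804 to 1253 CPM in libraries 2 to 4, and 128 of the 178, or 71.9%, were highest in Control 1, against 23.1% of all loci tested. CPM stands for counts per 1000000 after TMM scaling. The labelled tissue was checked against markers. The summed level of 5 mesophyll markers (RBCS1A, RBCS3B, CA1, LHCA1 and PSBO1) was 40235 to 45966 CPM in Mlp37347 and 21582 to 34233 CPM in Control. Each of the 8 flower markers stayed at or below 1.86 CPM and each of the 5 seed markers at or below 0.167 CPM in all 8 libraries. Of 8 root markers, EXPA7, EXPA18, COBL9, WOX5 and CASP1 stayed at or below 0.7098 CPM. The other root markers were higher, with PHO1 (AT3G23430) at 24.6 to 38.8 CPM in Mlp37347, against 18.8 to 30.7 CPM in Control, SCR at 24.7 to 27.8 CPM in Mlp37347, against 43.7 to 62.4 CPM in Control and RHD2 at 0.532 to 1.002 CPM in Mlp37347, against 1.87 to 6.38 CPM in Control.

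**Figure D1:**
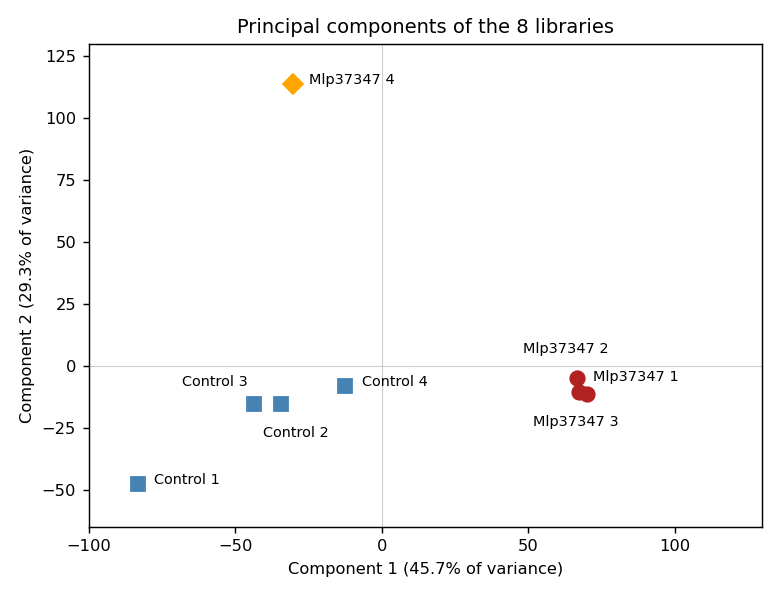
Each point is a library, placed by its first (x axis, 45.7% of the variance) and second (y axis, 29.3%) principal component of log2 CPM over the loci tested. Mlp37347 1, 2 and 3 lie together at the right, Mlp37347 4 lies alone at the top, and Control 1 lies farthest from the other Controls.

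With all libraries in the fit, 609 loci were higher in Mlp37347 than in Control (3.19% of those tested) and 1035 were lower (5.42%), at an edgeR adjusted p under 0.05. The median log2 fold change was 1.098 among the higher and -1.54 among the lower loci, and 0.01 over all loci tested. Of the lower loci 816 had fallen at least 2-fold and 314 at least 4-fold, against 371 and 100 of the higher ones. The ranges of the 4 Mlp37347 and the 4 Control libraries did not overlap at 3671 loci (19.2%), of which 1605 lay above Control and 2066 below, and 1469 of the calls were among them. Without Mlp37347 4, 2245 loci were higher (11.6% of 19382) and 2158 lower (11.1%), and these held 602 of the 609 and 1020 of the 1035 calls made with it. The fit took its estimate of spread from all 12 libraries, including the 4 of Mlp124499, the other effector line of the series. When any 1 library other than Mlp37347 4 was left out, between 222 (without Control 3) and 1073 (without Mlp124499 4) were higher and between 401 (without Mlp37347 1) and 1322 (without Mlp124499 4) lower. The counts were 392, 253, 222 and 527 higher and 733, 557, 546 and 1053 lower without Control 1, 2, 3 and 4, and 291, 283 and 308 higher and 401, 410 and 457 lower without Mlp37347 1, 2 and 3. In every fit that left out 1 library, 199 higher and 357 lower loci passed. When mate distance was a covariate, 172 were higher and 106 lower. That distance was 110 or 115 bp in 3 Mlp37347 libraries and at most 84 bp in Control, so line and distance cannot be fully told apart. With scaling by total counts, which shifts the median log2 fold change of all loci to -0.19, 351 were higher and 1900 lower, so that 15.6% of the calls were higher, against 37.0% with TMM scaling. Fold changes are given with their standard error and the Benjamini-Hochberg adjusted p of edgeR's quasi-likelihood test.

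The highest fold changes included genes of the evening clock and of chlorophyll and Rubisco assembly. FKF1 (AT1G68050), a blue-light photoreceptor that times flowering, stood at 2.07, 3.41, 3.17 and 35.1 CPM in Mlp37347 1 to 4, against 0, 0, 0 and 0.07703 CPM in Control 1 to 4. It was close to absent from Control, present at a low level in Mlp37347 1, 2 and 3, and highest in Mlp37347 4. Over the 4 libraries its 549 counts in Mlp37347 against 3 in Control gave a ratio of 212 (95% interval 72.2 to 1032, counting error only). The log2 fold change was 7.92 ± 1.78 SE (edgeR adjusted p = 0.0178), and 6.03 ± 1.52 SE without Mlp37347 4. The FKF1 call ended without Control 2, 3 or 4 (adjusted p up to 0.0658). PRR5 (AT5G24470), a repressor of morning genes, had 40.4, 62.3, 40.7 and 192 CPM in Mlp37347 1 to 4, against 1.59, 2.41, 0.4698 and 1.18 CPM in Control 1 to 4. Every Mlp37347 library was far above every Control, with library 4 highest (log2 fold change 5.91 ± 0.995 SE, edgeR adjusted p = 0.00445). GRP7 (AT2G21660), a clock-controlled RNA-binding protein, was at 278, 365, 272 and 649.7 CPM in Mlp37347 1 to 4, against 22.03, 27.9, 28.5 and 51.2 CPM in Control 1 to 4, again with no overlap and with Mlp37347 4 on top (3.59 ± 0.67, adjusted p = 0.00725).

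PORB (AT4G27440), which reduces protochlorophyllide in chlorophyll synthesis, reached 2195, 2349, 2061 and 759 CPM in Mlp37347 1 to 4, against 137, 177, 133 and 219.7 CPM in Control 1 to 4. Here the order within the line was reversed, since library 4 was the lowest of the 4 and still above all Controls (log2 fold change 3.47 ± 0.49 SE, edgeR adjusted p = 0.00184). The most even of these genes was AT4G34950, which encodes a major facilitator superfamily protein. It measured 173, 167, 152 and 138 CPM in Mlp37347 1 to 4, against 11.5, 17.1, 15.4 and 14.6 CPM in Control 1 to 4, so that the lowest Mlp37347 library stood far above the highest Control (3.42 ± 0.33, adjusted p = 0.000473). RbcX1 (AT4G04330), a chaperone of Rubisco assembly, was at 22.003 to 35.4 CPM in Mlp37347, against 2.28 to 3.45 CPM in Control, and AT1G56300, with a DnaJ chaperone domain, at 27.3 to 42.3 CPM in Mlp37347, against 0.586 to 4.25 CPM in Control. Both rose without overlap of the groups (3.29 ± 0.63, adjusted p = 0.00863, and 4.55 ± 0.91, adjusted p = 0.0102). Mlp37347 4 was likewise nearest to Control in AT5G62360, of a pectin methylesterase inhibitor family (3.5998 ± 0.503, adjusted p = 0.00178), in IGMT5 (AT1G76790), an O-methyltransferase (3.17 ± 0.4998, adjusted p = 0.00325), and in MLP328 (AT2G01520), a major latex protein-like gene (3.21 ± 0.72, adjusted p = 0.0169). The cyclophilin AT2G21130 rose by a like amount in the 4 libraries, at 4.19 to 6.39 CPM in Mlp37347, against 0.398 to 0.9501 CPM in Control (3.05 ± 0.65, adjusted p = 0.0135). FKF1, AT1G56300, PORB, RbcX1 and IGMT5 overlap a locus on the other strand, whose reads cannot be told apart from theirs if the counting did not use strand. The MLP328 call ended without Control 2 or 3 (adjusted p up to 0.0588). PRR3 (AT5G60100), a further pseudo-response regulator, was at 1.1001, 1.65, 1.84 and 19.2 CPM in Mlp37347 1 to 4, against 0.133, 0.0651, 0.336 and 0.257 CPM in Control 1 to 4. It was above Control in all 4 libraries (4.72 ± 1.29, adjusted p = 0.0395), but the call ended without Mlp37347 2, 3 or 4, Control 1, 2, 3 or 4 or Mlp124499 1 or 2 (adjusted p up to 0.106).

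Promoter windows of 300 bases before the annotated start, read from the RefSeq TAIR10.1 genome, are shown for 3 of these genes because they hold the evening element, the motif known from evening-phased clock genes. The element was searched as AAAATATCT on both strands. It occurred in 6 of the 12 windows of the genes with the highest fold changes and in 0 of the 12 with the lowest. Among all promoters it was found in 570 of 19089 windows, or 2.99%, in 9.20% of the 609 called higher and in 2.42% of the 1035 called lower. A match is a description of the letters and not a binding site. In FKF1 (chr1:25508339-25508638, plus strand) the match began 186 bases before the start. PRR5 (chr5:8358547-8358846, minus strand) had matches at 292 and 187 bases. In GRP7 (chr2:9266558-9266857, minus strand) there were matches at 76, 55 and 31 bases, and the site II motif, TGGGCC on either strand, stood at 208 and 151 bases. Site II was in 17.8% of all windows. The capitals mark these matches, none of which overlap each other, and each window is written 5′ to 3′ towards its gene.
FKF1: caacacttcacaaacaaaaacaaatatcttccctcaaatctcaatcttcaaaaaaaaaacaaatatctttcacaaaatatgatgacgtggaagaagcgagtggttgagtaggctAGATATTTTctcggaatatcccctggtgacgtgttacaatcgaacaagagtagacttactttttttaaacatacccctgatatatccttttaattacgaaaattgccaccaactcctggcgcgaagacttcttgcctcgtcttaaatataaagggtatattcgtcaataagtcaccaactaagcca
PRR5: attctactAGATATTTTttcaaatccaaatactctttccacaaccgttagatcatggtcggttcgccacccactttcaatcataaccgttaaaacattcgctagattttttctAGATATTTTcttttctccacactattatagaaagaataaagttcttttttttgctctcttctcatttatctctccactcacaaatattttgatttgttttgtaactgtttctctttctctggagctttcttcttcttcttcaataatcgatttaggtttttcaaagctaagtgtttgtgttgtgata
GRP7: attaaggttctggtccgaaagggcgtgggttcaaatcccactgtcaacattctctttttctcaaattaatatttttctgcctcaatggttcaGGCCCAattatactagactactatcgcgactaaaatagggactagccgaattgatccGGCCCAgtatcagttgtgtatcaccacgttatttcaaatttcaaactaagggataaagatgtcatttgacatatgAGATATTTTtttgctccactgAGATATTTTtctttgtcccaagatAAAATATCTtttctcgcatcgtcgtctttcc

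**Figure D2:**
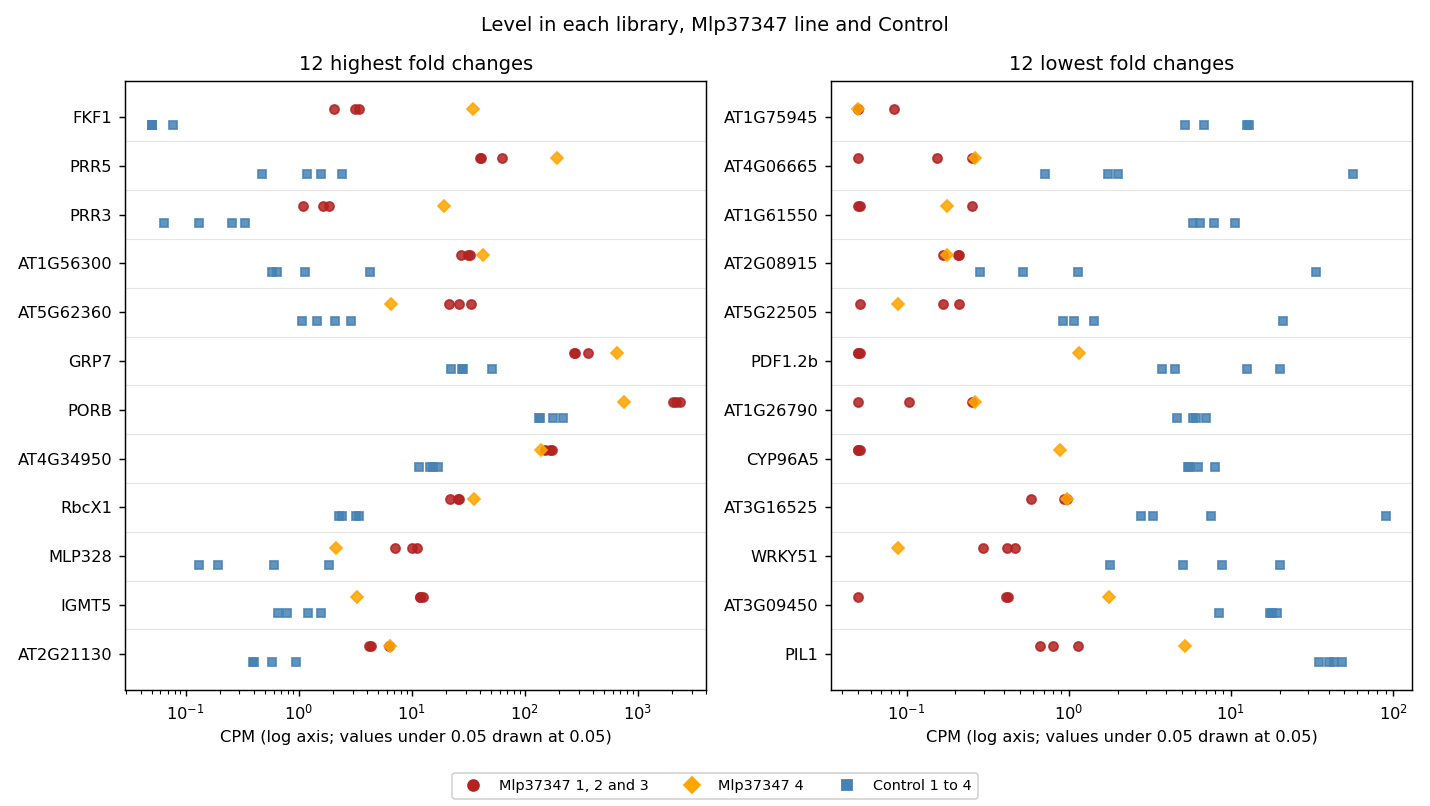
Each row is a gene among the 12 highest (left) or 12 lowest (right) fold changes, and each point is the CPM of a library on a log axis, Mlp37347 above and Control below within the row. The groups do not overlap in any row because the genes were chosen for this. At left, Mlp37347 4 is the highest Mlp37347 library in FKF1, PRR5, PRR3, AT1G56300, GRP7, RbcX1 and AT2G21130. It is the lowest in AT5G62360, PORB, AT4G34950, MLP328 and IGMT5.

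Among the lowest fold changes were loci with few counts in the Mlp37347 line. These were likewise chosen for a lack of overlap of the groups. AT1G75945, an uncharacterised locus, had 0.0423, 0, 0.0835 and 0 CPM in Mlp37347 1 to 4, against 5.18, 12.6, 12.95 and 6.83 CPM in Control 1 to 4. Only 2 counts were found in the 4 Mlp37347 libraries against 691 in Control. Control was thus 298 times Mlp37347 (95% interval 82.2 to 2466, counting error only). The log2 fold change was -7.96 ± 0.64 SE (edgeR adjusted p = 0.000138). The S-locus lectin protein kinase family gene AT1G61550 was at 0.254, 0.0517, 0 and 0.177 CPM in Mlp37347 1 to 4, against 7.83, 5.86, 10.6 and 6.47 CPM in Control 1 to 4, without overlap (-5.79 ± 0.61, adjusted p = 0.000536). PDF1.2b (AT2G26020), a defensin of jasmonate and ethylene defence, stood at 0, 0.0517, 0 and 1.15 CPM in Mlp37347 1 to 4, against 4.51, 12.5, 20.1 and 3.75 CPM in Control 1 to 4. Library 4 was the highest of its line and below every Control (-5.35 ± 1.04, adjusted p = 0.00882); reads of near-identical PDF1.2 copies may be split between them. WRKY51 (AT5G64810) and PIL1 (AT2G46970) belong to the same 12 and are described with their gene groups.

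AT1G26790, a Dof-type zinc finger gene, was at 0 to 0.266 CPM in Mlp37347, against 4.67 to 6.98 CPM in Control (-5.12 ± 1.09, adjusted p = 0.014005). CYP96A5 (AT2G21910), a cytochrome P450, was at 0 to 0.887 CPM in Mlp37347, against 5.44 to 7.99 CPM in Control (-5.01 ± 1.04, adjusted p = 0.01196), and both calls ended without Mlp37347 2, with adjusted p = 0.0579 and 0.0523. AT3G09450, of a fusaric acid resistance family, was at 0 to 1.77 CPM in Mlp37347, against 8.49 to 19.1 CPM in Control (-4.67 ± 1.32, adjusted p = 0.04599). The AT3G09450 call ended without Mlp37347 1, 2 or 3 or Control 1, 2, 3 or 4 (adjusted p up to 0.132). The other 4 loci, AT4G06665, AT2G08915, AT5G22505 and AT3G16525, each overlap a gene on the other strand, and whether the counting used strand is not given. AT4G06665 stood at 0.254, 0.155, 0 and 0.266 CPM in Mlp37347 1 to 4, against 56.7, 1.76, 2.01 and 0.719 CPM in Control 1 to 4. The gene that encloses it on the other strand, the starch enzyme gene BAM3 (AT4G17090), was at 72.9, 86.001, 79.5 and 119 CPM in Mlp37347 1 to 4, against 498, 454, 399 and 295 CPM in Control 1 to 4. Control 1 was thus far above the other Controls at the enclosed locus, and closer to them at BAM3. Control 1 was likewise far above Control 2, 3 and 4 at AT2G08915 (33.7, 0.521, 1.14 and 0.282 CPM), AT5G22505 (20.97, 1.43, 1.07 and 0.924 CPM) and AT3G16525 (90.5, 3.32, 7.58 and 2.799 CPM). All 4 calls ended without Control 1 and also without Mlp37347 1, 2 or 3, with adjusted p up to 0.0799 for AT4G06665, 0.192 for AT2G08915, 0.0818 for AT5G22505 and 0.0831 for AT3G16525. The AT2G08915 call also ended without Mlp124499 1.

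Of the promoter windows of the 12 lowest genes, that of AT1G61550 (chr1:22707830-22708129, minus strand) is shown since it holds 3 copies of the W-box core, the motif known to be bound by WRKY factors. The core was searched as TTGACC or TTGACT on both strands, and the matches, in capitals, began 261, 133 and 91 bases before the start. It occurred in 2 of the 12 windows of the genes with the lowest fold changes and in 0 of the 12 with the highest. The core was in 31.8% of all 19089 windows, in 26.9% of those called higher and in 41.4% of those called lower. The G-box, CACGTG, was in 8.08% of all windows, 10.5% of the higher and 8.41% of the lower, and site II in 11.99% of the higher and 10.2% of the lower.
AT1G61550: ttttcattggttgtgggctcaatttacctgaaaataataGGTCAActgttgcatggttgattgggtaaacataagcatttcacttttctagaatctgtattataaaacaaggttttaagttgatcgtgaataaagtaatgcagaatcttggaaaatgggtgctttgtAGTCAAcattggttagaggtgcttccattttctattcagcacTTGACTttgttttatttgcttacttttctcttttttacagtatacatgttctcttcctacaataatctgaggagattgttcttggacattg

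Of 24 genes of salicylic acid and systemic immunity, all tested, 13 fell and 0 rose, with a median log2 fold change of -1.76. Over all loci tested, 5.42% fell and 3.19% rose, and the count of each list stands beside these shares. Without Mlp37347 4 the shares over all loci were 11.1% and 11.6%. The mean log2 difference of the list from the Control mean was -1.65, -1.43, -1.33 and -1.999 in Mlp37347 1 to 4, against -1.05 to 0.57 in the Control libraries, where Control 4 was lowest and closest to the Mlp37347 line. PBS3 (AT5G13320), an enzyme that conjugates isochorismate on the way to salicylic acid, had 2.92, 2.74, 3.09 and 3.02 CPM in Mlp37347 1 to 4, against 27.9, 28.6, 63.4 and 18.1 CPM in Control 1 to 4. The 4 Mlp37347 values lay within 0.4 CPM of each other and below every Control (log2 fold change -3.55 ± 0.43 SE, edgeR adjusted p = 0.00112). EDS1 (AT3G48090), the hub of NLR signalling, stood at 22.7, 24.2, 26.9 and 23.7 CPM in Mlp37347 1 to 4, against 97.3, 67.1, 67.5 and 45.7 CPM in Control 1 to 4, also without overlap (-1.51 ± 0.22, adjusted p = 0.00195). Its partner PAD4 (AT3G52430) was at 9.85 to 21.7 CPM in Mlp37347, against 37.1 to 112 CPM in Control (-2.18 ± 0.39, adjusted p = 0.00558). SARD1 (AT1G73805) and CBP60g (AT5G26920), which switch on salicylic acid synthesis, were at 6.12 to 11.3 CPM in Mlp37347, against 18.4 to 61.1 CPM in Control (-2.21 ± 0.34, adjusted p = 0.00297) for SARD1. CBP60g was at 6.51 to 28.7 CPM in Mlp37347, against 39.9 to 74.8 CPM in Control (-2.15 ± 0.39, adjusted p = 0.00643). The synthesis enzyme ICS1 (AT1G74710) fell as well (-1.77 ± 0.34, adjusted p = 0.00863), as did the exporter EDS5 (AT4G39030, -1.95 ± 0.37, adjusted p = 0.00844). UGT76B1 (AT3G11340), a glucosyltransferase of immune signals, was at 1.65, 2.07, 1.67 and 1.86 CPM in Mlp37347 1 to 4, against 15.8, 29.04, 64.4 and 6.599 CPM in Control 1 to 4, below every Control (-3.99 ± 0.703, adjusted p = 0.00548). FMO1 (AT1G19250) and ALD1 (AT2G13810), enzymes of the pipecolic acid branch, were low, at 0.127 to 0.752 CPM in Mlp37347, against 1.67 to 11.3 CPM in Control (-3.43 ± 0.74, adjusted p = 0.0144) for FMO1. ALD1 was at 0.177 to 2.59 CPM in Mlp37347, against 2.36 to 19.1 CPM in Control (-2.48 ± 0.69, adjusted p = 0.0439). The ALD1 values overlapped, and its call ended without Mlp37347 1, 2 or 3, Control 1, 2 or 3 or Mlp124499 1, 2 or 3 (adjusted p up to 0.164), that of FMO1 without Mlp37347 1 (adjusted p up to 0.0524). PAD4, CBP60g, ICS1, EDS5, FMO1 and ALD1 were chosen after their values were seen, for their known roles, as were CRK4, CRK13, WRKY33, ELF4, CDF1, CDF2, DWF4, PHS2 and BAM3 below. With 1 library left out, 8 members fell without Mlp37347 1 and 15 without Mlp37347 4. With the mate inner distance of each library as covariate, where 172 of all loci rose and 106 fell, 0 of the list fell.

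Cysteine-rich receptor-like kinases (CRKs), surface kinases of which many are induced in immunity, made up the next list. Of 37 (of 42 listed) that were tested, 16 fell and 0 rose, with a median of -0.93, beside 5.42% of all loci that fell. Mlp37347 4 was below the whole Control range in 31 of the 37, beside 34.4% of all loci. CRK28 (AT4G21400) was at 8.21, 6.198, 6.77 and 9.32 CPM in Mlp37347 1 to 4, against 20.7, 19.5, 25.2 and 25.4 CPM in Control 1 to 4, with the groups apart (log2 fold change -1.58 ± 0.205 SE, edgeR adjusted p = 0.00128). CRK39 (AT4G04540) stood at 0.334 to 1.02 CPM in Mlp37347, against 4.78 to 15.4 CPM in Control (-3.62 ± 0.51, adjusted p = 0.00186). CRK13 (AT4G23210) was at 5.76 to 22.1 CPM in Mlp37347, against 25.3 to 80.5 CPM in Control (-2.2003 ± 0.41, adjusted p = 0.00725). CRK4 (AT3G45860) was at 15.6 to 37.3 CPM in Mlp37347, against 54.2 to 168 CPM in Control (-2.01 ± 0.39, adjusted p = 0.00849). CRK34 (AT4G11530) varied little within each group, at 3.02 to 3.39 CPM in Mlp37347, against 6.19 to 7.32 CPM in Control (-1.09 ± 0.19, adjusted p = 0.00494). CRK8 (AT4G23160) was at 0.6198 to 0.752 CPM in Mlp37347, against 1.54 to 8.097 CPM in Control (-2.54 ± 0.46, adjusted p = 0.00644). Without Mlp37347 2 or without Control 3, 10 fell, and with the mate distance as covariate 1 fell. Neighbouring CRK genes are alike in sequence, so some reads may be split between them.

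Of 58 (of 72 listed) WRKY transcription factors tested, 16 fell and 0 rose, with a median of -0.48, beside 5.42% of all loci that fell. WRKY70 (AT3G56400), a regulator at the junction of salicylic acid and jasmonate responses, had 30.4, 35.8, 25.8 and 12.2 CPM in Mlp37347 1 to 4, against 121, 152, 182 and 84.5 CPM in Control 1 to 4, with Mlp37347 4 lowest and no overlap (log2 fold change -2.37 ± 0.34 SE, edgeR adjusted p = 0.00186). WRKY46 (AT2G46400) stood at 2.92, 4.18, 2.42 and 0.799 CPM in Mlp37347 1 to 4, against 41.5, 24.2, 37.4 and 11.8 CPM in Control 1 to 4, again with Mlp37347 4 lowest (-3.43 ± 0.64, adjusted p = 0.00712). WRKY51 was at 0.296, 0.465, 0.418 and 0.0887 CPM in Mlp37347 1 to 4, against 20.04, 5.08, 8.86 and 1.797 CPM in Control 1 to 4, the lowest fold change of the family (-4.72 ± 0.76, adjusted p = 0.00349). WRKY53 (AT4G23810) differed in that Mlp37347 4, at 14.3 CPM, was highest in its line and just below the lowest Control at 17.6 CPM (-1.86 ± 0.29, adjusted p = 0.00327). WRKY33 (AT2G38470), a regulator of camalexin synthesis, was at 33.9, 38.7, 30.7 and 109 CPM in Mlp37347 1 to 4, against 302, 150.1, 172 and 105 CPM in Control 1 to 4, so that Mlp37347 4 reached the level of Control 4 (-1.78 ± 0.43, adjusted p = 0.0234). The WRKY33 call ended without Mlp37347 1, 2 or 3 or Control 1 or 3 (adjusted p up to 0.0856). Over the list library 4 lay below the Control range in 23 genes and above it in 12, beside 34.4% and 30.0% of all loci. In fits with 1 library left out, the number that fell was 26 without Mlp37347 4, 10 without Control 1, 8 without Control 3, 7 without Mlp37347 3, 6 without Mlp37347 1 or 2. It was 9 with the 8 libraries alone, 9 with the stricter count filter and 0 with the mate distance as covariate.

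Of 22 (of 24 listed) intracellular NLR receptors tested 4 fell and 0 rose, with a median of -0.61 over the list, beside 5.42% of all loci that fell. RPP1 (AT3G44480), a receptor for a downy mildew effector, stood at 79.5, 69.8, 79.3 and 80.4 CPM in Mlp37347 1 to 4, against 154, 148, 146 and 178 CPM in Control 1 to 4 (log2 fold change -1.02 ± 0.16 SE, edgeR adjusted p = 0.00329), with even levels in each group. TAO1 (AT5G44510) was at 19.4 to 24.8 CPM in Mlp37347, against 32.2 to 36.1 CPM in Control (-0.67 ± 0.15, adjusted p = 0.0191). SNC1 (AT4G16890) was at 189 to 328 CPM in Mlp37347, against 339.9 to 403 CPM in Control (-0.72 ± 0.203, adjusted p = 0.04604). RRS1 (AT5G45260), which carries a WRKY domain and also counts among the WRKY factors as WRKY52, was at 19.2 to 27.7 CPM in Mlp37347, against 28.4 to 40.4 CPM in Control (-0.604 ± 0.17, adjusted p = 0.0489). In SNC1 and RRS1 library 4 lay just below the lowest Control. The TAO1 call ended without Mlp37347 1 or 2 or Control 3 (adjusted p up to 0.0934), that of SNC1 without any other single library than Mlp37347 4 (adjusted p up to 0.173) and that of RRS1 without any but Mlp37347 4 or Control 4 (up to 0.173). Among NLR genes the number that fell was 9 without Mlp37347 4, 2 without Mlp37347 3, Control 1 or 2 or Mlp124499 1, 2 or 3, 1 without Mlp37347 1 or 2 or Control 3, and 1 with the mate distance as covariate.

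Beside 5.42% of all loci that fell, 3 of 10 (of 14 listed) mitochondrial stress genes tested fell and 0 rose. Among them OM66 (AT3G50930), an outer membrane protein, was at 7.62, 9.504, 9.104 and 9.85 CPM in Mlp37347 1 to 4, against 58.005, 42.6, 50.6 and 27.7 CPM in Control 1 to 4, with the groups far apart (log2 fold change -2.31 ± 0.28 SE, edgeR adjusted p = 0.00112). AOX1D (AT1G32350), an alternative oxidase, was at 0.752 to 2.04 CPM in Mlp37347, against 4.93 to 8.79 CPM in Control (-2.34 ± 0.4996, adjusted p = 0.014005). The AOX1D call ended without Mlp37347 1 or 3 (adjusted p up to 0.0608). In the lignin and phenylpropanoid list 22 (of 28 listed) were tested, of which 4 fell and 0 rose, beside 5.42% of all loci. CAD5 (AT4G34230), a cinnamyl alcohol dehydrogenase, was at 21.1, 29.1, 22.4 and 26.8 CPM in Mlp37347 1 to 4, against 53.4, 58.6, 59.6 and 43.3 CPM in Control 1 to 4, without overlap (-1.11 ± 0.21, adjusted p = 0.00725). PAL1 (AT2G37040), the entry enzyme of the pathway, stood at 49.2 to 87.4 CPM in Mlp37347, against 134 to 184 CPM in Control (-1.13 ± 0.29, adjusted p = 0.0307). The PAL1 call ended without Mlp37347 1, 2 or 3 or Control 2, 3 or 4 (adjusted p up to 0.0891). The pathway enzymes 4CL1 (AT1G51680, -0.93 ± 0.21, adjusted p = 0.0175) and CAD4 (AT3G19450, -1.28 ± 0.29, adjusted p = 0.0193) fell as well. The 4CL1 call ended without Mlp37347 1 or 3 or Control 2 (adjusted p up to 0.0632), that of CAD4 without Mlp37347 1 or 2 (adjusted p up to 0.0635). The list median was -0.32. The mitochondrial count was 5 without Mlp124499 4, 1 without Mlp37347 1 or 3, and the lignin count 2 without Mlp37347 2 or 3 or Control 2, 1 without Mlp37347 1. With the mate distance as covariate these counts were 0 and 1.

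Of 16 evening genes and clock outputs, all tested, 9 rose and 2 fell, with a median log2 fold change of 1.49. Of all loci 3.19% rose and 5.42% fell. The list mean above Control was 1.17, 1.33, 1.23 and 2.698 in Mlp37347 1 to 4, against -0.14 to 0.13 in Control, so that library 4 was highest. GI (AT1G22770), a scaffold of the evening loop, had 83.4, 86.6, 74.7 and 207 CPM in Mlp37347 1 to 4, against 13.7, 16.9, 17.99 and 17.9 CPM in Control 1 to 4 (log2 fold change 2.76 ± 0.48 SE, edgeR adjusted p = 0.00526). Mlp37347 4 was more than 2 times the other libraries of its line, and all 4 were above Control. LUX (AT3G46640), a DNA-binding subunit of the evening complex, was at 20.8 to 35.8 CPM in Mlp37347, against 3.06 to 6.902 CPM in Control (2.45 ± 0.39, adjusted p = 0.00358). Its partner ELF4 (AT2G40080) was at 0.919 to 4.08 CPM in Mlp37347, against 0.0651 to 0.257 CPM in Control (3.58 ± 0.905, adjusted p = 0.0293). The ELF4 call ended without Mlp37347 1 or Control 1, 2 or 3 (adjusted p up to 0.0859). CHE (AT5G08330), a repressor of CCA1, differed in being lowest in Mlp37347 4, at 77.98, 70.6, 75.8 and 61.4 CPM in Mlp37347 1 to 4, against 30.5, 30.9, 30.5 and 39.005 CPM in Control 1 to 4 (1.12 ± 0.16, adjusted p = 0.00178). The genes of this list that fell were CDF1 (AT5G62430, -1.64 ± 0.44, adjusted p = 0.0357) and CDF2 (AT5G39660, -1.92 ± 0.46, adjusted p = 0.0237), Dof factors that peak in the morning and repress flowering. The CDF1 call ended without Mlp37347 1, 2 or 3 or Control 1, 2 or 3 (adjusted p up to 0.121), that of CDF2 without Mlp37347 1, 2 or 3 or Control 1 or 2 (adjusted p up to 0.0847). The count that rose was 5 without Control 2 and 7 with the mate distance as covariate, and the count that fell was 1 without Control 3, 0 without Mlp37347 1, 2 or 3 or Control 1 or 2.

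Of 12 morning clock genes 5 fell and 0 rose, with a median of -1.57, beside 5.42% of all loci that fell. LHY (AT1G01060), the core morning repressor, stood at 22.003, 19.2, 24.1 and 92.6 CPM in Mlp37347 1 to 4, against 476, 516, 512 and 372 CPM in Control 1 to 4. All 4 libraries were below Control, and library 4 lay between the other 3 and Control (log2 fold change -3.57 ± 0.71 SE, edgeR adjusted p = 0.00979). RVE8 (AT3G09600), an activator of evening genes, was at 7.74, 8.88, 9.61 and 25.3 CPM in Mlp37347 1 to 4, against 80.04, 102, 118 and 81.3 CPM in Control 1 to 4, in the same order (-2.898 ± 0.65, adjusted p = 0.0181). The coactivators LNK1 (AT5G64170) and LNK2 (AT3G54500) were at 47.1 to 90.7 CPM in Mlp37347, against 98.3 to 139.8 CPM in Control (-1.09 ± 0.24, adjusted p = 0.0149) for LNK1. LNK2 was at 221 to 707 CPM in Mlp37347, against 999 to 1283 CPM in Control (-1.68 ± 0.43, adjusted p = 0.0302). The list mean was -2.08, -2.19, -2.11 and -0.395 in Mlp37347 1 to 4, against -0.26 to 0.13 in Control. The calls of RVE8, LNK1 and LNK2 ended without Mlp37347 1, 2 or 3 or Control 3 (adjusted p up to 0.06897), without Mlp37347 1, 2 or 3 (adjusted p up to 0.06897), and without Mlp37347 1, 2 or 3 or Control 1, 2 or 3 (adjusted p up to 0.106). Library 4 lay above the Control range in 4 of the 12 genes and below it in 7, beside 30.0% and 34.4% of all loci. The count that fell was 10 without Mlp37347 4, 3 without Control 1 or 2, 2 without Control 3, 1 without Mlp37347 1, 2 or 3, and 0 with the mate distance as covariate.

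**Figure D3:**
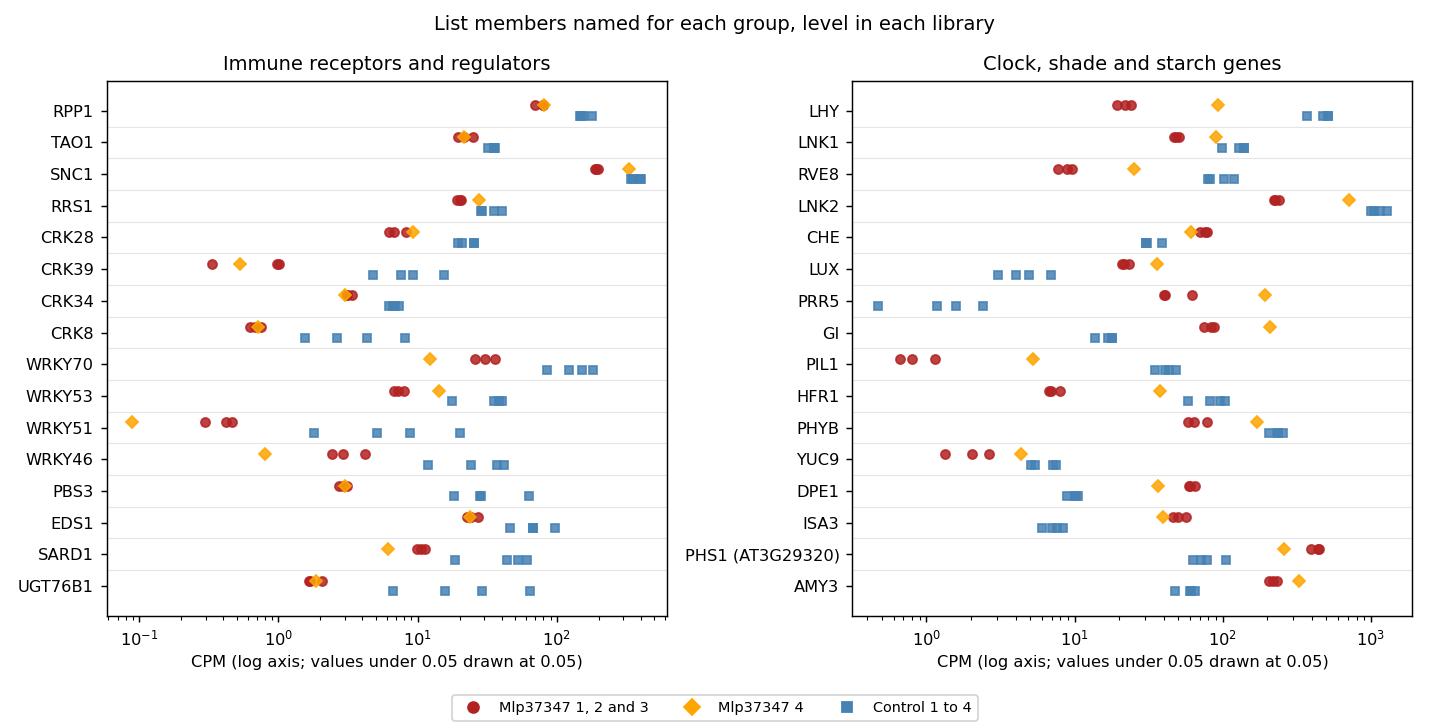
Each row is a gene named for its list, immune genes at left and clock, shade and starch genes at right, and each point is the CPM of a library on a log axis with Mlp37347 above Control in the row. The immune genes lie below Control in all 4 Mlp37347 libraries, while in LHY, RVE8, LNK2, PIL1, HFR1 and PHYB Mlp37347 4 lies between its sister libraries and Control.

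Of 21 shade and light-signalling genes tested 5 fell and 0 rose, beside 5.42% of all loci that fell. The list median was -0.54, and the list mean was -1.31, -1.15, -1.37 and -0.06 in Mlp37347 1 to 4. PIL1, a bHLH factor induced by shade, stood at 0.804, 1.14, 0.668 and 5.24 CPM in Mlp37347 1 to 4, against 48.2, 43.4, 34.8 and 40.5 CPM in Control 1 to 4 (log2 fold change -4.48 ± 0.56 SE, edgeR adjusted p = 0.00117). All 4 libraries were far below Control. HFR1 (AT1G02340), a bHLH that restrains shade growth, was at 6.98, 7.95, 6.68 and 37.9 CPM in Mlp37347 1 to 4, against 82.6, 96.2, 58.2 and 104 CPM in Control 1 to 4 (-2.53 ± 0.58, adjusted p = 0.0191). PHYB (AT2G18790), the red-light receptor, was at 63.9, 78.6, 58.4 and 170.5 CPM in Mlp37347 1 to 4, against 254, 238, 204 and 234 CPM in Control 1 to 4 (-1.32 ± 0.31, adjusted p = 0.0223). YUC9 (AT1G04180), an auxin synthesis enzyme, was at 1.34 to 4.35 CPM in Mlp37347, against 5.04 to 7.49 CPM in Control (-1.297 ± 0.33, adjusted p = 0.0302). The YUC9 call ended without Mlp37347 1, 2 or 3 or Control 2, 3 or 4 (adjusted p up to 0.108). The calls of HFR1 and PHYB ended without Mlp37347 1, 2 or 3, and that of PHYB also without Control 2 (adjusted p up to 0.0714 for HFR1 and 0.0853 for PHYB). Library 4 was above the Control range in 7 of the 21 genes and below it in 8, near its shares of 30.0% and 34.4% over all loci. The shade count that fell was 9 without Mlp37347 4, 3 without Control 3, 2 without Control 2, 1 without Mlp37347 1, 2 or 3, and 1 with the mate distance as covariate. Among flowering-time genes 20 (of 24 listed) were tested, of which 1 rose and 5 fell, beside 3.19% of all loci that rose and 5.42% that fell. SNZ (AT2G39250), a repressor of flowering, was at 7.74, 8.01, 8.19 and 9.41 CPM in Mlp37347 1 to 4, against 28.5, 22.4, 24.97 and 19.9 CPM in Control 1 to 4, with even levels in each group (log2 fold change -1.52 ± 0.19 SE, edgeR adjusted p = 0.00112). TOE1 (AT2G28550), a repressor of the same AP2-like family, moved the other way, at 74.5, 83.1, 73.3 and 75.1 CPM in Mlp37347 1 to 4, against 37.96, 42.2, 44.3 and 39.95 CPM in Control 1 to 4 (0.896 ± 0.15, adjusted p = 0.00401). MAF5 (AT5G65080), an FLC-like repressor, was at 1.77 to 2.69 CPM in Mlp37347, against 12.99 to 31.3 CPM in Control (-3.03 ± 0.68, adjusted p = 0.0177). FT (AT1G65480), the mobile flowering signal, was low in both groups, at 0.177 to 0.668 CPM in Mlp37347, against 1.01 to 2.52 CPM in Control (-1.86 ± 0.44, adjusted p = 0.0223). These 2 calls ended without Mlp37347 1, 2 or 3, and that of FT also without Control 4 (adjusted p up to 0.0592 for MAF5 and 0.0809 for FT). The count that fell was 3 without Control 1, 2 or 3, 2 without Control 4, 1 without Mlp37347 1, 2 or 3.

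Of 53 (of 79 listed) SAUR genes tested, small auxin-induced growth regulators, 11 fell and 2 rose, with a median of -0.62. Of all loci 5.42% fell and 3.19% rose. SAUR21 (AT5G18030) was at 5.92, 5.94, 4.43 and 7.72 CPM in Mlp37347 1 to 4, against 12.9, 18.8, 14.5 and 22.8 CPM in Control 1 to 4, without overlap (log2 fold change -1.53 ± 0.28 SE, edgeR adjusted p = 0.00709). SAUR79 (AT2G35290) went the other way, at 4.74, 3.62, 3.09 and 1.42 CPM in Mlp37347 1 to 4, against 0.398, 0.586, 0.604 and 0.873 CPM in Control 1 to 4 (2.32 ± 0.398, adjusted p = 0.00501). SAUR9 (AT4G36110, -1.68 ± 0.29, adjusted p = 0.00526) and SAUR27 (AT3G03840, -1.52 ± 0.297, adjusted p = 0.00895) fell. SAUR19 to SAUR24 are near-identical, so their separate values are uncertain. The count that fell was 19 without Mlp37347 4, 6 without Control 3 or 4, 4 without Control 2, 3 without Mlp37347 1, 2 or 3, and the mean of the list in Control 1 was also low, at -0.56, against -0.62, -0.67, -0.698 and -0.28 in Mlp37347 1 to 4. In the brassinosteroid list 18 (of 19 listed) were tested, of which 6 fell and 1 rose. The brassinosteroid-induced bHLH genes BEE1 (AT1G18400) and BEE3 (AT1G73830) were at 8.52 to 16.6 CPM in Mlp37347, against 32.1 to 45.8 CPM in Control (-1.66 ± 0.24, adjusted p = 0.00186) for BEE1. BEE3 was at 11.6 to 15.4 CPM in Mlp37347, against 39.1 to 52.3 CPM in Control (-1.699 ± 0.296, adjusted p = 0.00526). PRE5 (AT3G28857), a small bHLH of the same module, was at 0.167 to 0.355 CPM in Mlp37347, against 1.73 to 2.696 CPM in Control (-2.93 ± 0.38, adjusted p = 0.00128). IBH1 (AT2G43060), an inhibitor in this module, fell too, at 9.48, 11.2, 10.02 and 20.4 CPM in Mlp37347 1 to 4, against 40.9, 38.8, 38.995 and 41.3 CPM in Control 1 to 4 (-1.65 ± 0.24, adjusted p = 0.00186). DWF4 (AT3G50660), the committed enzyme of brassinosteroid synthesis, rose, at 16.5, 17.9, 18.04 and 18.01 CPM in Mlp37347 1 to 4, against 7.43, 9.18, 7.58 and 9.14 CPM in Control 1 to 4 (1.07 ± 0.27, adjusted p = 0.0268). The DWF4 call ended without Mlp37347 1, 2 or 3 or Control 1, 2 or 3 (adjusted p up to 0.0811). With the mate distance as covariate 0 SAUR and 1 brassinosteroid genes fell.

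EXLA1 (AT3G45970), an expansin-like protein, was at 101, 64.2, 111 and 63.4 CPM in Mlp37347 1 to 4, against 11.02, 12.4, 11.8 and 12.2 CPM in Control 1 to 4, without overlap (log2 fold change 2.84 ± 0.27 SE, edgeR adjusted p = 0.000473). EXPA8 (AT2G40610), an alpha-expansin, stood at 11.4, 16.9, 9.69 and 84.8 CPM in Mlp37347 1 to 4, against 119, 197, 114 and 128 CPM in Control 1 to 4 (-2.19 ± 0.59, adjusted p = 0.0362). The EXPA8 call ended without Mlp37347 1, 2 or 3, Control 1, 2, 3 or 4 or Mlp124499 1 or 2 (adjusted p up to 0.119). Of 20 (of 36 listed) expansin genes tested 1 rose and 4 fell, and of 23 (of 33 listed) xyloglucan hydrolase (XTH) genes 2 rose and 2 fell, beside 3.19% of all loci that rose and 5.42% that fell. The expansin count that fell was 2 without Control 1 or Mlp124499 1 or 2, 1 without Mlp37347 1, 2 or 3 or Control 2, 3 or 4, 2 with the 8 libraries alone and 2 with the mate distance as covariate. XTH8 (AT1G11545) was at 17.8 to 19.6 CPM in Mlp37347, against 31.99 to 43.1 CPM in Control (-1.05 ± 0.15, adjusted p = 0.00178). XTH28 (AT1G14720) was at 38.5 to 61.2 CPM in Mlp37347, against 23.8 to 29.4 CPM in Control (1.05 ± 0.18, adjusted p = 0.00526). XTH9 (AT4G03210) had 304, 266, 298 and 35.8 CPM in Mlp37347 1 to 4, against 33.98, 34.4, 40.5 and 55.6 CPM in Control 1 to 4, high in 3 libraries and within the Control range in Mlp37347 4 (2.45 ± 0.504, adjusted p = 0.0116). EXPA3 (AT2G37640, -1.01 ± 0.25, adjusted p = 0.0271), the expansin-related PNP-A (AT2G18660, -2.35 ± 0.49, adjusted p = 0.0122) and XTH17 (AT1G65310, -1.79 ± 0.31, adjusted p = 0.00526) fell. The EXPA3 call ended without Mlp37347 1, 2 or 3 or Control 2, 3 or 4 (adjusted p up to 0.102). The expansin count that rose was 4 without Mlp37347 4, 2 without Mlp124499 2 or 4, and that which fell 2 without Control 1 or Mlp124499 1 or 2, 1 without Mlp37347 1, 2 or 3 or Control 2, 3 or 4. The XTH count that fell was 4 without Mlp37347 4.

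Part of the starch genes rose, and the list mean was above Control in Mlp37347 1, 2 and 3 and not in library 4. Of 33 starch genes, all tested, 8 rose and 1 fell, beside 3.19% and 5.42% of all loci. The median log2 fold change of the list was 0.57. Without Mlp37347 4, 19 rose and 1 fell, beside 11.6% and 11.1% of all loci in that fit. The genes that rose included enzymes that break starch down. DPE1 (AT5G64860), a disproportionating enzyme, was at 60.4, 65.3, 59.3 and 36.8 CPM in Mlp37347 1 to 4, against 10.5, 8.92, 10.2 and 10.04 CPM in Control 1 to 4 (log2 fold change 2.49 ± 0.41 SE, edgeR adjusted p = 0.00408). Its lowest library, Mlp37347 4, was still more than 3 times the highest Control. ISA3 (AT4G09020), a debranching enzyme, was at 50.1, 56.1, 46.3 and 39.7 CPM in Mlp37347 1 to 4, against 7.03, 8.399, 6.04 and 7.55 CPM in Control 1 to 4 (2.72 ± 0.505, adjusted p = 0.00712). The amylase AMY3 (AT1G69830) was at 206, 231, 217 and 327 CPM in Mlp37347 1 to 4, against 61.5, 59.7, 47.7 and 64.9 CPM in Control 1 to 4, highest in Mlp37347 4 (2.07 ± 0.42, adjusted p = 0.01105). PHS1 (AT3G29320) and PHS2 (AT3G46970), the plastid and cytosol phosphorylases, stood at 257 to 448 CPM in Mlp37347, against 62.5 to 106 CPM in Control (2.27 ± 0.46, adjusted p = 0.0109) for PHS1. PHS2 was at 47.8 to 217 CPM in Mlp37347, against 27.5 to 39.8 CPM in Control (2.26 ± 0.51, adjusted p = 0.0184), and its call ended without Mlp37347 2 or Control 3 (adjusted p up to 0.0633). BAM3, the beta-amylase of leaf starch breakdown, was the member that fell (-2.21 ± 0.49, adjusted p = 0.0164), and its call ended without Mlp37347 1, 2 or 3 (adjusted p up to 0.0642). The count that rose was 5 without Mlp37347 2 or Control 3, and the count that fell was 3 without Mlp124499 4, 0 without Mlp37347 1, 2 or 3. With the mate distance as covariate 0 rose. The list mean was 0.72, 0.73, 0.71 and -0.01 in Mlp37347 1 to 4, so that library 4 stood at the Control mean.

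A like split of the list means was seen in chlorophyll synthesis, surface lipids and DNA replication. Beside the counts of these lists, 3.19% of all loci rose and 5.42% fell. Without Mlp37347 4 these shares were 11.6% and 11.1%. In tetrapyrrole synthesis 26 (of 27 listed) were tested, of which 4 rose and 0 fell, against 14 and 1 without Mlp37347 4. Besides PORB these were HEME1 (AT3G14930), a uroporphyrinogen decarboxylase, at 268, 267, 264 and 157 CPM in Mlp37347 1 to 4, against 128, 101, 117 and 137 CPM in Control 1 to 4 (0.99 ± 0.201, adjusted p = 0.0112), and NOL (AT5G04900, 0.53 ± 0.14, adjusted p = 0.0318). CRD1 (AT3G56940), a subunit of the cyclase, also rose, at 1977 to 2099 CPM in Mlp37347, against 912 to 1394 CPM in Control (0.71 ± 0.201, adjusted p = 0.0456). The count was 2 when any other Mlp37347 or Control library was left out, and 0 with the mate distance as covariate. The NOL call ended without Mlp37347 1, 2 or 3 or Control 1, 2, 3 or 4 (adjusted p up to 0.0839), that of CRD1 without Mlp37347 1, 2 or 3, Control 1, 2, 3 or 4 or Mlp124499 1 or 2 (adjusted p up to 0.103). Of 26 (of 29 listed) wax and cutin genes tested 3 rose and 0 fell. CER1 (AT1G02205), an enzyme of alkane synthesis, was at 81.5, 85.9, 79.8 and 40.02 CPM in Mlp37347 1 to 4, against 14.7, 24.2, 28.6 and 31.9 CPM in Control 1 to 4 (log2 fold change 1.53 ± 0.31 SE, edgeR adjusted p = 0.0108). All 4 libraries were above Control, with library 4 nearest to it. GPAT8 (AT4G00400, 0.83 ± 0.2001, adjusted p = 0.0238) and GPAT4 (AT1G01610, 0.73 ± 0.18, adjusted p = 0.0274), acyltransferases of cutin synthesis, also rose. The GPAT8 call ended without Mlp37347 1, 2 or 3 or Control 1 or 3 (adjusted p up to 0.0779), that of GPAT4 without Mlp37347 1, 2 or 3 or Control 2 or 3 (adjusted p up to 0.0811). The wax count that rose was 12 without Mlp37347 4, 6 without Mlp124499 4, 1 without Mlp37347 1, 2 or 3 or Control 3, and 0 or 1 fell in these fits. In DNA replication 20 (of 21 listed) were tested, and the 3 that rose were MCM4 (AT2G16440) and MCM7 (AT4G02060), of the replicative helicase, and the replication factor CDC45 (AT3G25100). MCM4 stood at 20.6, 20.6, 19.5 and 9.76 CPM in Mlp37347 1 to 4, against 7.03, 8.399, 9.598 and 8.83 CPM in Control 1 to 4, in Mlp37347 4 just above the highest Control (1.06 ± 0.27, adjusted p = 0.0309). MCM7 was at 30.97, 30.2, 28.8 and 13.04 CPM in Mlp37347 1 to 4, against 11.9, 12.1, 11.5 and 13.4 CPM in Control 1 to 4, in Mlp37347 4 within the Control range (1.07 ± 0.28, adjusted p = 0.0333). Without Mlp37347 4, 13 replication genes rose, and without any other Mlp37347 or Control library 0 did. The list means of Mlp37347 1, 2 and 3 were 0.55 to 0.87 in these 3 lists, and those of Mlp37347 4 were 0.03, 0.05 and -0.49 in the order described.

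Of 23 (of 27 listed) iron genes tested 3 rose and 5 fell, beside 3.19% of all loci that rose and 5.42% that fell. NEET (AT5G51720), an iron-sulfur protein, was at 18.2, 14.05, 11.4 and 14.2 CPM in Mlp37347 1 to 4, against 93.8, 32.2, 47.3 and 67.3 CPM in Control 1 to 4, below every Control (log2 fold change -2.05 ± 0.35 SE, edgeR adjusted p = 0.00474). FRO7 (AT5G49740), the chloroplast ferric reductase, stood at 95.97, 98.04, 99.3 and 123 CPM in Mlp37347 1 to 4, against 345, 382, 260.4 and 297 CPM in Control 1 to 4 (-1.62 ± 0.298, adjusted p = 0.00683). BTS (AT3G18290), a negative regulator of iron uptake, was at 159 to 211 CPM in Mlp37347, against 102 to 115 CPM in Control (0.79 ± 0.17, adjusted p = 0.0135). VTL1 (AT1G21140), a vacuolar iron transporter family member, fell (-1.69 ± 0.33, adjusted p = 0.00844). The iron counts were 8 without Mlp37347 4, 1 without Mlp37347 1, 2 or 3 or Control 2 or 3 for those that rose, and 8 without Mlp37347 4, 3 without Mlp37347 1, 2 or 3 or Control 2 or 4 for those that fell. Among sulfate genes 19 (of 21 listed) were tested, of which 2 rose and 1 fell, beside 3.19% of all loci that rose and 5.42% that fell. The transporter SULTR4;2 (AT3G12520) had 12.8, 13.7, 14.03 and 3.82 CPM in Mlp37347 1 to 4, against 2.65, 3.32, 2.21 and 4.57 CPM in Control 1 to 4, high in 3 libraries and within the Control range in Mlp37347 4 (1.78 ± 0.38, adjusted p = 0.0143). Without Control 3 its adjusted p was 0.0519. SULTR1;2 (AT1G78000), a sulfate importer, was at 19.2, 16.4, 19.96 and 6.03 CPM in Mlp37347 1 to 4, against 4.51, 5.08, 4.03 and 8.68 CPM in Control 1 to 4, again with library 4 within the Control range (1.45 ± 0.36, adjusted p = 0.0287). The SULTR1;2 call ended without Mlp37347 1, 2 or 3 or Control 1, 2 or 3 (adjusted p up to 0.0881). In the list of superoxide, catalase and copper genes 21 (of 23 listed) were tested, of which 3 rose and 0 fell. Of all loci 3.19% rose and 5.42% fell. FSD1 (AT4G25100), the iron superoxide dismutase, stood at 739, 593, 661 and 137 CPM in Mlp37347 1 to 4, against 43.9, 117, 179 and 208 CPM in Control 1 to 4, high in 3 libraries and within the Control range in library 4 (1.96 ± 0.55, adjusted p = 0.0455). The FSD1 call ended without Mlp37347 1, 2 or 3, Control 1, 2 or 3 or Mlp124499 2 (adjusted p up to 0.114). Plastocyanin PETE1 (AT1G76100) was at 433, 411, 431 and 137 CPM in Mlp37347 1 to 4, against 167, 154, 149 and 158 CPM in Control 1 to 4, in library 4 below every Control (1.17 ± 0.302, adjusted p = 0.0315). TAPX (AT1G77490), a thylakoid ascorbate peroxidase, was at 217 to 235 CPM in Mlp37347, against 145 to 163 CPM in Control (0.53 ± 0.15, adjusted p = 0.0447). The PETE1 call ended without Mlp37347 1, 2 or 3 or Control 1, 2, 3 or 4 (adjusted p up to 0.0882), that of TAPX without Mlp37347 1, 2 or 3, Control 1, 2, 3 or 4 or Mlp124499 1 or 2 (adjusted p up to 0.104). Of 29 (of 41 listed) glutathione transferase genes tested 1 rose and 4 fell, beside 3.19% of all loci that rose and 5.42% that fell. GSTF9 (AT2G30860) was at 752, 727, 746 and 151 CPM in Mlp37347 1 to 4, against 114, 183, 199 and 226 CPM in Control 1 to 4 (1.72 ± 0.41, adjusted p = 0.0225). The GSTF9 call ended without Mlp37347 1, 2 or 3 or Control 1, 2 or 3 (adjusted p up to 0.0632), and GSTU3 (AT2G29470) was at 0.127 to 0.976 CPM in Mlp37347, against 1.56 to 11.9 CPM in Control (-3.81 ± 0.78, adjusted p = 0.0112). GSTU6 (AT2G29440, -2.14 ± 0.45, adjusted p = 0.0135) and GSTF6 (AT1G02930, -1.26 ± 0.34, adjusted p = 0.0383) fell as well. The GSTU6 call ended without Mlp37347 1 or 3 (adjusted p up to 0.0607), that of GSTF6 without Mlp37347 1, 2 or 3, Control 2 or 3 or Mlp124499 1 or 2 (adjusted p up to 0.131).

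Counts of the sulfate list that rose were 5 without Mlp37347 4, 1 without Mlp37347 1, 2 or 3 or Control 1 or 2, 0 without Control 3, and those that fell 2 without Mlp124499 2 or 4, 0 without Mlp37347 1, 2 or 3 or Control 1 or 4. For the superoxide, catalase and copper list the count that rose was 6 without Mlp37347 4, 1 without Control 4 or Mlp124499 2, 0 without Mlp37347 1, 2 or 3 or Control 1, 2 or 3, and 3 fell without Mlp37347 4. Among glutathione transferases the count that rose was 5 without Mlp37347 4, 2 without Mlp124499 3, 0 without Mlp37347 1, 2 or 3 or Control 1, 2 or 3, and that which fell 8 without Mlp37347 4, 2 without Mlp37347 2, Control 2 or 3 or Mlp124499 1 or 2, 1 without Mlp37347 1 or 3. AGO7 (AT1G69440), the Argonaute of the tasiRNA pathway, was the member of 18 (of 20 listed) RNA silencing genes tested that fell, beside 5.42% of all loci. It was at 2.45, 1.86, 2.34 and 1.86 CPM in Mlp37347 1 to 4, against 8.36, 7.49, 5.71 and 5.44 CPM in Control 1 to 4, without overlap (log2 fold change -1.65 ± 0.22 SE, edgeR adjusted p = 0.00136). Of 24 (of 29 listed) cytokinin genes tested 1 rose and 1 fell, near the shares of 3.19% and 5.42% over all loci. The number that rose was 3 without Mlp124499 4, 2 without Mlp37347 4 or Mlp124499 1 or 3, 0 without Mlp37347 1, 2 or 3 or Control 2 or 3, and that which fell 7 without Mlp37347 4, 2 without Mlp124499 3. With total-count scaling 0 rose and 7 fell. CKX5 (AT1G75450), a cytokinin oxidase, was at 2.79, 2.74, 2.59 and 16.7 CPM in Mlp37347 1 to 4, against 36.1, 38.5, 30.8 and 37.5 CPM in Control 1 to 4, with library 4 between its sister libraries and Control (-2.56 ± 0.52, adjusted p = 0.0113). The cytokinin receptor AHK2 (AT5G35750) was at 47.4 to 50.4 CPM in Mlp37347, against 27.5 to 36.8 CPM in Control (0.55 ± 0.14, adjusted p = 0.0312). The AHK2 call ended without Mlp37347 1, 2 or 3 or Control 2 or 3 (adjusted p up to 0.09896). Of 21 (of 24 listed) gibberellin genes tested 2 rose and 1 fell, beside 3.19% of all loci that rose and 5.42% that fell. Among those that rose was the receptor GID1A (AT3G05120), at 23.1 to 32.8 CPM in Mlp37347, against 11.5 to 15.7 CPM in Control (0.896 ± 0.17, adjusted p = 0.00874). GASA5 (AT3G02885) was at 4.61, 5.01, 4.01 and 0.444 CPM in Mlp37347 1 to 4, against 0, 0.651, 0.336 and 0.385 CPM in Control 1 to 4, high in 3 libraries and within the Control range in library 4 (3.22 ± 0.701, adjusted p = 0.0152). The GASA5 call ended without Control 3 (adjusted p up to 0.0538). Gibberellin genes that rose numbered 1 without Control 3, and those that fell 3 without Mlp37347 4 or Mlp124499 4, 0 without Mlp37347 1 or 3, Control 2, 3 or 4 or Mlp124499 2.

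In the lists of nitrogen and sugar transport, water channels and autophagy, at most 2 genes each passed. Of 27 (of 29 listed) nitrate and nitrogen genes tested 1 fell, and of 25 (of 42 listed) sugar transporters and invertases 1 fell. Of 25 (of 34 listed) aquaporins 2 fell, and in each of these lists 0 rose. Of all loci 5.42% fell and 3.19% rose. The nitrate and nitrogen list had 3 that rose and 5 that fell in DESeq2, and 0 and 4 with the replicate block. Of 31 (of 32 listed) autophagy genes tested, 0 passed in edgeR, 1 were higher and 3 lower at an unadjusted p under 0.05, and 0 passed in DESeq2. In voom 4 were higher and 19 lower, beside 5262 higher and 5636 lower of all 19090 loci. The lowest adjusted p was that of ATG5 (AT5G17290, -0.61 ± 0.22, adjusted p = 0.0994). Without Mlp37347 4 the counts were 3 that rose and 6 that fell for nitrate and nitrogen, 2 and 3 for sugar transport, 2 and 5 for aquaporins and 0 and 8 for autophagy. In that fit 11.6% of all loci rose and 11.1% fell. NIP6;1 (AT1G80760), a boric acid channel, was at 13.8, 12.6, 16.96 and 8.34 CPM in Mlp37347 1 to 4, against 18.3, 42.1, 29.7 and 35.9 CPM in Control 1 to 4, below every Control (-1.29 ± 0.301, adjusted p = 0.02103). The NIP6;1 call ended without Mlp37347 1 or 2 or Control 2 or 3 (adjusted p up to 0.0738). NRT3.1 (AT5G50200), a partner of nitrate transporters, was at 11.6 to 35.7 CPM in Mlp37347, against 35.04 to 53.7 CPM in Control (-1.202 ± 0.33, adjusted p = 0.04299). The invertase family gene CWINV3 (AT1G55120) was at 10.1 to 12.04 CPM in Mlp37347, against 14.9 to 24.2 CPM in Control (-0.75 ± 0.21, adjusted p = 0.0443). Their calls ended without Mlp37347 1, 2 or 3, Control 1, 2, 3 or 4 or Mlp124499 1 or 2 (adjusted p up to 0.145), and without Mlp37347 1, 2 or 3, Control 1, 2 or 3 or Mlp124499 1 or 2 (adjusted p up to 0.151). With the mate distance as covariate, 11 of the 18 lists with a gene that rose and 16 of the 25 with a gene that fell had none. Over all lists, 48 of 771 members tested rose and 114 fell, beside 3.19% of all loci that rose and 5.42% that fell. In the 13 lists where edgeR called 0 genes higher, 0 to 5 members were higher at an unadjusted p under 0.05, 0 to 3 in DESeq2 and 0 to 8 in voom. In the 6 lists where edgeR called 0 lower, 0 to 3 members were lower at an unadjusted p under 0.05, 0 or 1 in DESeq2 and 0 to 19 in voom.

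**Figure D4:**
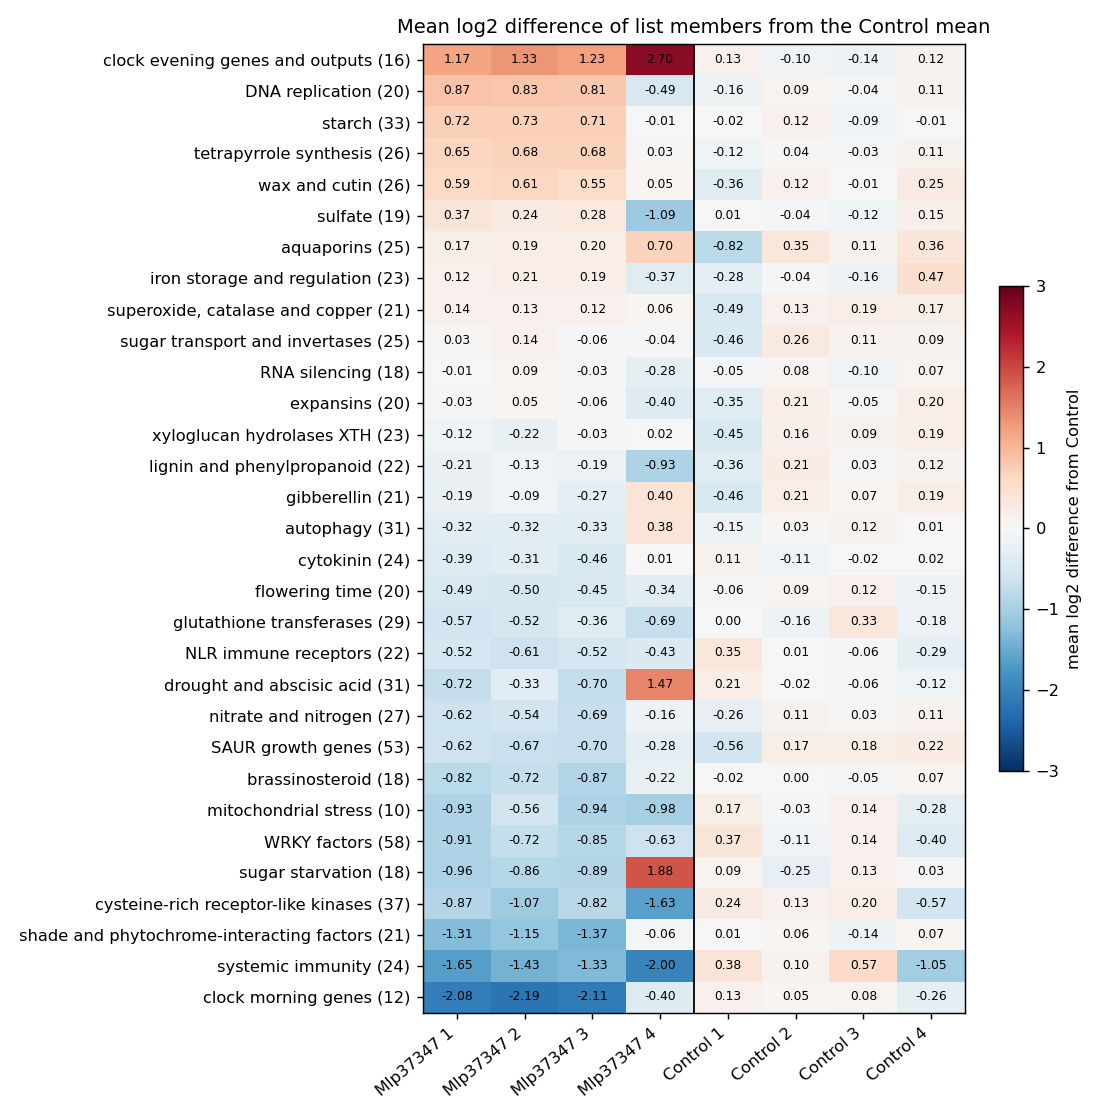
Each cell gives the mean log2 difference of the tested members of a list (number in brackets) from the mean of the 4 Controls, by library, with Mlp37347 1 to 4 at left and Control 1 to 4 at right. The means of systemic immunity and of the cysteine-rich receptor-like kinases are lower in all 4 Mlp37347 libraries than in any Control. So are those of NLR receptors, WRKY factors, morning clock, flowering time, brassinosteroid, glutathione transferases and mitochondrial stress. Those of DNA replication, starch, tetrapyrrole synthesis, wax and cutin, and sulfate are above every Control in Mlp37347 1, 2 and 3. In Mlp37347 4 they are not.

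Mlp37347 4 was set beside the loci that passed in the fit that did not use it. Of the loci higher in Mlp37347 1, 2 and 3, 2225 were also tested with all libraries. At these, library 4 lay above the range of the 4 Controls in 35.1%, within it in 30.5% and below it in 34.5%, against 30.0%, 35.6% and 34.4% of all 19090 loci. At the 2130 lower loci it lay above in 22.4%, within in 25.3% and below in 52.3%. The median log2 difference from the Control mean at the higher loci was 0.91, 0.93 and 0.93 in Mlp37347 1, 2 and 3 and 0.00 in Mlp37347 4. At the lower loci it was -1.28, -1.23 and -1.28 in the first 3 and -0.43 in library 4. The loci were called against the same 4 Controls that give these ranges, so the shares over all loci are not the values expected without a change.

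Some genes were lower than Control in Mlp37347 1, 2 and 3 and at or above it in Mlp37347 4. They were chosen for this contrast, so their values are given as a description. MGL (AT1G64660), a methionine lyase, had 11.7, 15.4, 9.94 and 1043 CPM in Mlp37347 1 to 4, against 165, 277, 216 and 217 CPM in Control 1 to 4. BT2 (AT3G48360), a BTB and TAZ domain protein, was at 4.53, 6.97, 5.18 and 578 CPM in Mlp37347 1 to 4, against 76.6, 80.3, 73.7 and 122 CPM in Control 1 to 4. ST2A (AT5G07010), a sulfotransferase, stood at 1.904, 2.58, 2.59 and 289.6 CPM in Mlp37347 1 to 4, against 157, 381, 237 and 321 CPM in Control 1 to 4, so that library 4 was at the Control level and the other 3 were far lower. AT3G19390, a cysteine protease with a granulin repeat, was at 1.1001, 1.498, 0.752 and 121 CPM in Mlp37347 1 to 4, against 7.43, 6.32, 7.92 and 6.805 CPM in Control 1 to 4. SIS (AT5G02020) was at 3.004, 2.74, 2.76 and 221 CPM in Mlp37347 1 to 4, against 95.4, 52.7, 67.9 and 59.2 CPM in Control 1 to 4. DIN11 (AT3G49620), a gene induced in darkness and sugar starvation, had 0, 0.0517, 0.167 and 73.9 CPM in Mlp37347 1 to 4, against 8.49, 6.97, 17.6 and 14.3 CPM in Control 1 to 4. In the fit without library 4 the fold changes of these genes were negative, as in MGL (-4.11 ± 0.45 SE, edgeR adjusted p = 0.000178) and BT2 (-3.95 ± 0.71 SE, edgeR adjusted p = 0.00285). DIN11 rested there on only 3 counts in Mlp37347 1, 2 and 3. With all libraries they did not pass, and the sign for MGL, BT2, DIN11 and AT3G19390 was positive.

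The opposite contrast was found in genes that included enzymes of glucosinolate and anthocyanin synthesis. GSTU20 (AT1G78370), a glutathione transferase, stood at 491, 478, 536 and 3.11 CPM in Mlp37347 1 to 4, against 74.5, 82.8, 72.4 and 91.5 CPM in Control 1 to 4. CYP79F1 (AT1G16410) and IPMI2 (AT2G43100) are enzymes of aliphatic glucosinolate synthesis, with 139.5, 140.3, 152 and 2.57 CPM in Mlp37347 1 to 4, against 59.5, 47.7, 38.1 and 42.7 CPM in Control 1 to 4 for CYP79F1. IPMI2 was at 146, 163, 171 and 2.48 CPM in Mlp37347 1 to 4, against 40.4, 41.5, 35.04 and 28.2 CPM in Control 1 to 4. In all 3 genes Mlp37347 1, 2 and 3 were above Control and Mlp37347 4 was far below it. DFR (AT5G42800), an enzyme of anthocyanin synthesis, had 53.7, 46.6, 53.3 and 0.266 CPM in Mlp37347 1 to 4, against 3.05, 6.38, 5.504 and 8.68 CPM in Control 1 to 4 and showed the same order (3.12 ± 0.501 SE, edgeR adjusted p = 0.00158 without library 4). AT1G72416, with a DnaJ domain, was at 194, 152, 158 and 3.02 CPM in Mlp37347 1 to 4, against 6.77, 5.21, 4.43 and 4.904 CPM in Control 1 to 4. AT4G21870, a small heat shock protein family member, was at 121, 96.5, 102 and 2.31 CPM in Mlp37347 1 to 4, against 22.03, 20.4, 21.6 and 28.5 CPM in Control 1 to 4. AT1G72416 passed with all libraries (log2 fold change 4.58 ± 0.94 SE, edgeR adjusted p = 0.0116), although library 4 was below every Control. AT4G21870 passed in neither fit. The uncharacterised loci AT1G47395, AT2G14247 and AT5G05250 passed only without library 4, with 0.799 to 32.7 CPM in Mlp37347, against 1.302 to 4.11 CPM in Control for AT5G05250. AT2G15020 had 1.73, 1.65, 2.17 and 13.2 CPM in Mlp37347 1 to 4, against 119, 108, 91.8 and 60.4 CPM in Control 1 to 4, below every Control in all 4 libraries, with an edgeR adjusted p of 0.05495 with all libraries and 0.0183 without Mlp37347 4. AT1G69572, which lies inside AT1G69570 on the other strand, was at 0.169, 0.258, 0.334 and 2.31 CPM in Mlp37347 1 to 4, against 37.3, 1.24, 1.48 and 0.693 CPM in Control 1 to 4, with Control 1 again far above the other Controls.

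Lists of sugar starvation and of drought and abscisic acid showed library 4 on the other side of Control from its line. The sugar starvation mean was -0.96, -0.86, -0.89 and 1.88 in Mlp37347 1 to 4, against -0.25 to 0.13 in Control. Library 4 was above the Control range in 16 of 18 genes, beside 30.0% of all loci. DIN10 (AT5G20250), a raffinose synthase family gene and the member that passed, was at 1913, 1929.8, 1774 and 4551 CPM in Mlp37347 1 to 4, against 1110.2, 909, 856 and 1135 CPM in Control 1 to 4 (log2 fold change 1.34 ± 0.36 SE, edgeR adjusted p = 0.03795). The DIN10 call ended without Mlp37347 1 or 2, Control 1, 2, 3 or 4 or Mlp124499 1 (adjusted p up to 0.108). For drought and abscisic acid the means were -0.72, -0.33, -0.704 and 1.47 in Mlp37347 1 to 4. Library 4 was above the Control range in 24 of the 31 tested of 34 listed, beside 30.0% of all loci. CYP707A4 (AT3G19270), an enzyme that breaks abscisic acid down, fell without overlap, at 1.31, 1.81, 1.67 and 1.95 CPM in Mlp37347 1 to 4, against 5.84, 6.51, 3.96 and 3.21 CPM in Control 1 to 4 (-1.53 ± 0.27, adjusted p = 0.00554). LEA7 (AT1G52690) was the member that rose, at 0.465, 5.32, 0.418 and 1.597 CPM in Mlp37347 1 to 4, against 0.133, 0, 0.0671 and 0.1797 CPM in Control 1 to 4 (4.11 ± 0.98, adjusted p = 0.02303), highest in Mlp37347 2. The LEA7 call ended without Mlp37347 2 or Control 1, 2 or 3 (adjusted p up to 0.0786). The median of the sugar starvation list was 0.66 with all libraries and -0.58 without Mlp37347 4, and that of the drought list 0.47 and -0.80. Without Mlp37347 4, 1 gene rose and 4 fell in the first list, and 1 rose and 7 fell in the second. In that fit 11.6% of all loci rose and 11.1% fell.

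**Figure D5:**
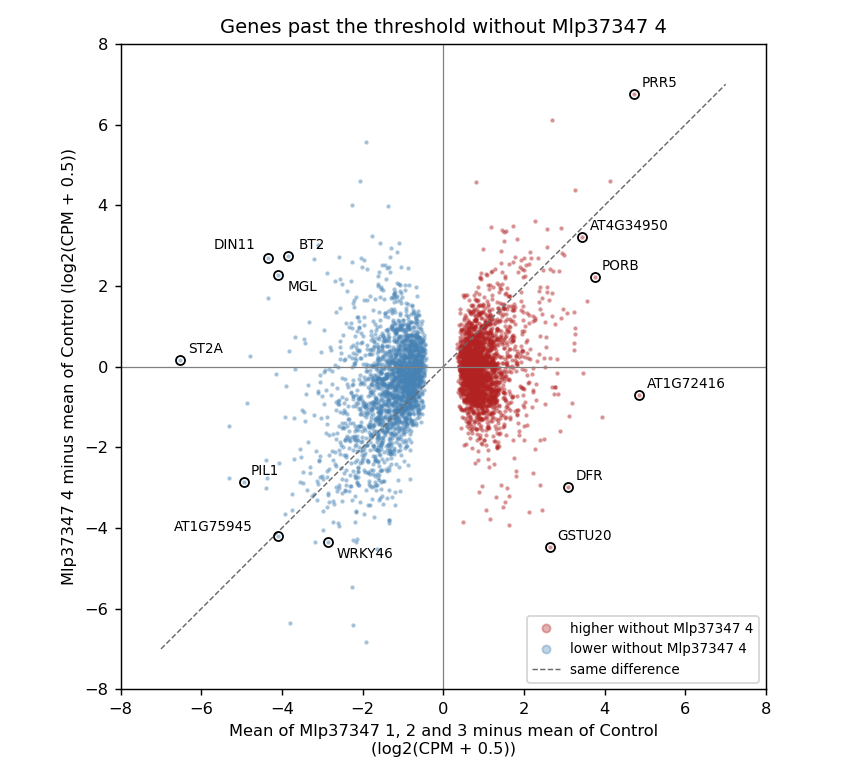
Each point is a locus past the threshold in the fit without Mlp37347 4, with its mean difference of Mlp37347 1, 2 and 3 from the Control mean on the x axis and that of Mlp37347 4 on the y axis, both on the log2(CPM + 0.5) scale. Red points, higher in the first 3 libraries, spread about 0 on the y axis, while more blue points lie below 0 than above it; named genes are circled.

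Among the most abundant genes past the threshold were light-harvesting proteins of the photosystems. LHCA1 (AT3G54890) stood at 7446, 7828, 7459 and 7129 CPM in Mlp37347 1 to 4, against 2535, 4872, 4867 and 4327 CPM in Control 1 to 4, without overlap (log2 fold change 0.85 ± 0.23 SE, edgeR adjusted p = 0.03697). LHCB4.1 (AT5G01530) was at 5027, 5012, 4763 and 4624 CPM in Mlp37347 1 to 4, against 1258, 2762, 2499 and 2846 CPM in Control 1 to 4 (1.05 ± 0.26, adjusted p = 0.0245). LHB1B1 (AT2G34430) was highest in Mlp37347 4, at 5941, 6684, 5620.1 and 11560.5 CPM in Mlp37347 1 to 4, against 755, 2152, 2039 and 2905 CPM in Control 1 to 4 (1.92 ± 0.42, adjusted p = 0.0162). CAB3 (AT1G29910) was lowest there, at 9302, 10519, 8812 and 4663 CPM in Mlp37347 1 to 4, against 1876, 3597, 3073 and 4998 CPM in Control 1 to 4 (1.298 ± 0.31, adjusted p = 0.0237). Both belong to the near-identical LHCB1 group, so reads may be split between them. In each of these 4 genes Control 1 was the lowest library. THI1 (AT5G54770), an enzyme of thiamine synthesis, was at 1567 to 2828 CPM in Mlp37347, against 643 to 1719.7 CPM in Control (1.22 ± 0.305, adjusted p = 0.0281). ECS1 (AT1G31580), a small cell wall protein, fell to 136 to 512 CPM in Mlp37347, against 769.9 to 1969.7 CPM in Control (-1.94 ± 0.51, adjusted p = 0.0335). The calls ended for LHCA1 without Mlp37347 1, 2 or 3, Control 2, 3 or 4 or Mlp124499 1 (adjusted p up to 0.0877). They ended for LHCB4.1 without Mlp37347 1, 2 or 3 or Control 3 (adjusted p up to 0.0661), and for LHB1B1 without Control 3 (adjusted p up to 0.0516). The CAB3 call ended without Mlp37347 1, 2 or 3 or Control 2 or 3 (adjusted p up to 0.0764). The same was seen for THI1 without Mlp37347 1, 2 or 3 or Control 1, 2 or 3 (adjusted p up to 0.0897), and for ECS1 without Mlp37347 1, 2 or 3 or Control 2 or 3 (adjusted p up to 0.101). Of the 5 mesophyll markers only LHCA1 passed, and its part in the results above was not tested.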

How the data were processed

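RNA sequencing of 12 libraries was deposited as a table of gene-level read counts, which per the submitters' processing notes came from Trimmomatic trimming and TopHat2 2.0.14 alignment to TAIR10, with R 3.2.5 downstream. A deposited metadata table gave read numbers and the mate inner distance, a value set by the authors. Whether counting used strand is not given in the sources used here. The 285 organelle loci had 0 counts in every library. Loci with too few counts were removed with filterByExpr (19090 of 32833 kept), libraries were scaled by TMM, and Mlp37347 was set against Control in a quasi-likelihood fit of edgeR 4.0.16 (R 4.3.3) over all 12 libraries, with Benjamini-Hochberg adjustment and a threshold of 0.05. CPM were computed here from the deposited counts, and principal components from log2 CPM with a prior count of 2. Alternatives were other scalings and filters, DESeq2 1.42.0, voom with sample weights in limma 3.58.1, the 8 libraries alone, a replicate block, the mate distance as covariate, and each library left out. Names and promoter windows came from RefSeq TAIR10.1, to which 99.1% of locus identifiers matched; 977 list names matched 1 locus and 40 were not used.

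Named genes were the 12 highest and 12 lowest fold changes past the threshold without overlap of the groups and with a mean of at least 5 CPM in the higher group, up to 4 members per list by adjusted p (the lowest one where none passed), 5 genes per direction by the ratio of Mlp37347 4 to the other 3 libraries, 4 per direction that passed only without Mlp37347 4, and the 6 most abundant in each group. The comparison, the gene lists and the named genes' rule were chosen with earlier results of these data known. Of the 140 named genes, 36 overlap another annotated locus. Total counts of 6645703 to 37378917 per library set the counting error, and intervals cover counting error only.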

Additional observations from a re-analysis of the deposited data

Results flagged for a closer look

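In each of 31 gene lists, the mean log2 difference from the Control mean was examined within the 4 libraries of each group for a library far from the other 3, that is, one whose gap to the nearest other library divided by the range of the group exceeded Dixon's 95% critical value for 4 samples. Of 62 groups of 4 values, 18 held such a library. Chance flags about 1 in 20 independent groups, but the lists share the same 8 libraries and Mlp37347 4 was known to differ from its sister libraries, so these counts only describe where it did. Mlp37347 4 was that library in 13 lists, Mlp37347 2 in 1 list and a Control library in 4.

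Mlp37347 4 stood above its sister libraries in the evening clock list (2.698), sugar starvation (1.88), aquaporins (0.6998) and autophagy (0.38), and nearer to Control than they were in the morning clock list (-0.40) and the shade list (-0.0574). It stood below them in starch (-0.00693), tetrapyrrole synthesis (0.0317), wax and cutin (0.0505), DNA replication (-0.49), sulfate (-1.09), iron storage and regulation (-0.37) and lignin and phenylpropanoid (-0.93). Mlp37347 2 stood above the others of its line in mitochondrial stress (-0.56). In Control, library 1 was the low one in xyloglucan hydrolases (-0.45), SAUR growth genes (-0.56) and the superoxide, catalase and copper list (-0.49), and library 4 was the low one in cysteine-rich receptor-like kinases (-0.57).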

How the results depend on the processing

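Counts of loci higher and lower, 609 and 1035 as reported, were 351 and 1900 with total-count scaling, 1319 and 1476 with DESeq2, 5262 and 5636 with limma voom and sample weights, 172 and 106 with the mate inner distance as covariate, 121 and 333 when a fold of 1.5 was tested, and 143 and 323 at an adjusted p under 0.01. Leaving out 1 library gave 222 to 2245 higher and 401 to 2158 lower. Without both Mlp37347 4 and Control 1, a setting chosen after seeing the data, 2002 were higher and 2297 lower. With RLE or upper-quartile scaling, no filter, a stricter filter or the 8 libraries alone, both counts stayed within 1.5 times those reported.

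With the replicate block, 236 loci were higher and 566 lower. The deviations of same-numbered Mlp37347 and Control libraries from their group means correlated at -0.059, 0.025, -0.052 and -0.169 for numbers 1 to 4. Since Mlp37347 4 weighs on the mean of its line, these values cannot decide whether libraries of the same number shared a batch. The labels do not state it either. Of the 140 named genes, 44 no longer passed with the block and 1 newly passed. Of the gene lists with a call, the count moved by over 1.5 times with the block in 13 of 18 for genes that rose and 12 of 25 for genes that fell, among them WRKY factors (7 fell), NLR receptors (1 fell) and evening clock genes (5 rose). The like numbers were 15 of 18 and 24 of 25 with the mate distance covariate, 5 of 18 and 8 of 25 with the 8 libraries alone, 8 of 18 and 6 of 25 with total-count scaling, and 3 of 18 and 5 of 25 with the stricter filter.

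The mate distance covariate turned the sign of XTH9 (-0.05), SULTR1;2 (-0.0117), GSTF9 (-0.17) and FSD1 (-0.19), and 34 of 140 named genes kept their sign and side of the threshold with it. The sign turned for 4 genes under voom, without Mlp37347 4, and without Mlp37347 4 and Control 1, where the log2 fold changes in that order were -2.56, -2.60 and -2.61 for AT3G19390, -3.93, -3.95 and -4.05 for BT2, -4.33, -4.11 and -4.26 for MGL, and -7.23, -7.51 and -7.69 for DIN11. With another library left out these 4 reached up to 2.57, 1.203, 0.752 and 1.096 in that order of genes. The cause was not tested, beyond the library 4 values given for these genes. The 1.5-fold test was not run for single genes. Control 1 was the shallowest library, with 6645703 counts.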

Other observations

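Markers of other cell types were measured beside the results above, and their part in these was not tested. The summed level of 6 guard cell markers was 83.6, 83.3, 79.0 and 97.6 CPM in Mlp37347 1 to 4, against 178, 139, 127 and 128 CPM in Control 1 to 4, without overlap. KAT1 (AT5G46240), a potassium channel of guard cells, was the 1 of the 6 that fell, at 31.99, 30.01, 28.5 and 26.2 CPM in Mlp37347 1 to 4, against 94.9, 75.5, 58.4 and 58.4 CPM in Control 1 to 4. It weighs heavily in the sum, and the groups overlapped in each of the other markers. Their log2 fold changes were negative in MYB60 (-0.86), FAMA (-0.46) and HT1 (-0.25) and positive in SLAC1 (0.33) and TMM (0.24), and none passed. The 6 phloem markers summed to 589.6, 584.7, 585.5 and 299 CPM in Mlp37347 1 to 4, against 207, 554, 399 and 434.5 CPM in Control 1 to 4. Trichome markers summed to 18.4, 19.7, 18.3 and 71.0 CPM in Mlp37347 1 to 4, against 28.4, 31.1, 33.2 and 29.4 CPM in Control 1 to 4. GL2 (AT1G79840), a homeodomain factor of trichome and root-hair patterning, made up most of this, with 13.4, 15.2, 14.8 and 68.1 CPM in Mlp37347 1 to 4, against 25.1, 28.8, 31.1 and 26.9 CPM in Control 1 to 4, so that library 4 was above every Control and its sister libraries below.

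Of 8 root markers, RHD2 (AT5G51060) and SCR (AT3G54220) fell, at 0.532 to 1.002 CPM in Mlp37347, against 1.87 to 6.38 CPM in Control, and at 24.7 to 27.8 CPM in Mlp37347, against 43.7 to 62.4 CPM in Control. The 6 shoot meristem markers summed to 8.25 to 12.4 CPM in Mlp37347, against 9.03 to 11.99 CPM in Control. The 8 flower markers summed to 1.705 to 3.05 CPM in Mlp37347, against 2.01 to 4.65 CPM in Control.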
